A study of Mus musculus with 15 samples.

Results

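Genes that copy DNA and genes that divide the cell were followed in whole blood of mice given the BET bromodomain inhibitor ABBV-075. They were a list of 43 genes named by symbol: 20 that license or carry out DNA replication or supply its nucleotides, 17 that act in mitosis, and 6 regulators of the step from G1 into S phase. The rule that chose them used gene symbols and no measured value, but the list was drawn up with earlier results of these data known. Of the 43, 42 had a probe set annotated with their symbol alone and 31 were bright enough to test, out of 18193 genes with such a probe set and 12499 tested on the array. Cyclin B1 (Ccnb1) was the gene without one, and is not analysed here.

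Each of the 15 arrays held total RNA from the blood of 1 mouse, taken 6 h after dosing. The groups were vehicle, ABBV-075 at 1 mg/kg and ABBV-075 at 5 mg/kg, with 5 mice in each, so that every group had been dosed and the vehicle mice had no inhibitor. The labels do not give the strain, sex or age of the mice or the route of dosing. By its title the series set out to find blood markers that respond to the compound.

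Most circulating blood cells do not divide. Transcripts for replication and mitosis in blood come mainly from the small numbers of dividing or recently divided cells, such as activated lymphocytes, young granulocytes and reticulocytes, the last of which keep RNA made by their dividing precursors. The MCM helicase is loaded onto origins in G1 by Cdc6 and Cdt1, fires with the GINS complex in S phase, and is followed by primase, DNA polymerase alpha and the sliding clamp PCNA. Many of these genes are transcribed under E2F factors, which Rb1 holds in check until cyclin E and Cdk2 release them. Genes of G2 and mitosis are transcribed later, under complexes that read a short element known as the CHR, often together with CCAAT boxes bound by NF-Y. BET proteins bind acetylated chromatin and help RNA polymerase II to elongate, and in many dividing cell lines their inhibition lowers the transcription of cell cycle genes.

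Values are normalised intensities on the log2 scale, where 4 is the floor (an intensity of 16) to which dimmer values were set, and a gene was tested when it lay above the floor on at least 5 arrays. Of the 42 members with a probe set, 19 lay above the floor on all 15 arrays: 11 replication genes, 4 mitosis genes and 4 regulators. A further 11 were too dim to test. Cdc6, Tk1 (thymidine kinase), Ccne2 (cyclin E2), Cdk1 (the mitotic kinase) and Ccnf (cyclin F) were at the floor on all 15 arrays. Aurkb, Bub1 and Kif20a exceeded it on 1 array each, Rfc3 and Birc5 on 3 each, and Mcm5 on 4. The tested members were therefore 16 of 20 replication genes, 10 of the 16 mitosis genes with a probe set and 5 of 6 regulators. Being at the floor is a bound on the signal of a probe set and does not show that the transcript was absent.

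The promoters of the 2 classes held different letters. RefSeq promoter windows of 300 bases (250 before to 50 from the transcript start, build GRCm38.p6) were available for 36 of the 43 members, and were searched on both strands for the E2F words TTTCCCGC, TTTGGCGC, TTTCGCGC and TTTGCCGC, the CHR words TTTGAA and TTCGAA, and the word CCAAT. Among 41 member windows, 1 held overlapping words of different motifs. An E2F word was present for 9 of 18 replication genes (50%), namely Mcm3, Mcm5, Mcm6, Mcm7, Cdc6, Cdt1, Lig1, Pola1 and Rfc3, and for 1 of 14 mitosis genes (7.14%), which was Cdk1. Of all 27025 genes in the table, 2.605% had one. A CHR word was present for 12 of 14 mitosis genes (85.7%) and 4 of 18 replication genes (22.2%), against 21.7% of all genes. The CCAAT word was present for 13 of 14 mitosis genes (92.9%) and 12 of 18 replication genes (66.7%), against 41.1% of all genes. A match describes the letters in the window and does not show that a factor binds there.

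**Figure D1:**
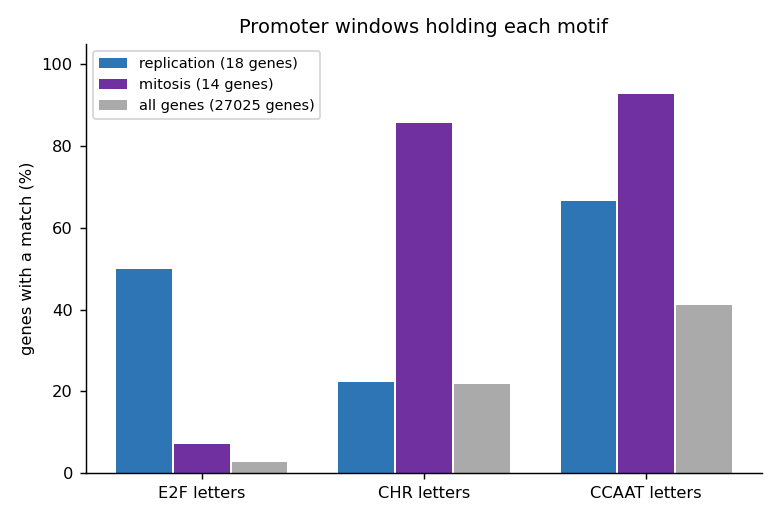
Share of genes (y axis, %) whose promoter window held at least 1 word of the E2F, CHR or CCAAT motif (x axis), for 18 replication genes, 14 mitosis genes and 27025 genes in all. The replication bar is the tallest for E2F words, at 50%, and the mitosis bar for CHR words, at 85.7%, and for CCAAT, at 92.9%.

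Promoter windows of 6 members are shown because the results below turn on Pcna, Prim1, Top2a and E2f2, and because Mcm3 and Ccnb2 show the letters typical of a replication and of a mitosis gene. The last 2 were chosen after the matches were seen. Capitals mark E2F, CHR and CCAAT words on either strand, and each window is written 5′ to 3′ on the strand of its gene. Pcna, which encodes the sliding clamp, lies at chr2:132253131-132253430 on the minus strand, and its window held a single CCAAT word 87 bases before the start and no E2F or CHR word. Prim1, the catalytic subunit of primase, lies at chr10:128014965-128015264 on the plus strand, and its window held a single CCAAT word 9 bases before the start. Mcm3, a subunit of the replicative helicase, lies at chr1:20820263-20820562 on the minus strand, with 1 E2F word that begins 20 bases and another that begins 39 bases from the start. E2f2, an E2F factor itself, lies at chr4:136172024-136172323 on the plus strand, and this is the first of its 2 windows, with an E2F word that begins 40 bases from the start. Top2a, the topoisomerase that untangles sister chromatids, lies at chr11:99024140-99024439 on the minus strand. Ccnb2, the mitotic cyclin B2, lies at chr9:70421505-70421804 on the minus strand, with CCAAT words 87, 54 and 21 bases before the start and a CHR word that begins 5 bases from it.
Pcna: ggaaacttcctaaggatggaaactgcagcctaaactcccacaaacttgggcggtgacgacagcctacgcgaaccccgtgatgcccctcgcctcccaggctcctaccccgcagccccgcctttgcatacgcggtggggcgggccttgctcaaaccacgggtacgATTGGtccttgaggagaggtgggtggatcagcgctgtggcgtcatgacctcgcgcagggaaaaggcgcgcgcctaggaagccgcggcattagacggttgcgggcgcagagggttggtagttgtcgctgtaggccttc
Prim1: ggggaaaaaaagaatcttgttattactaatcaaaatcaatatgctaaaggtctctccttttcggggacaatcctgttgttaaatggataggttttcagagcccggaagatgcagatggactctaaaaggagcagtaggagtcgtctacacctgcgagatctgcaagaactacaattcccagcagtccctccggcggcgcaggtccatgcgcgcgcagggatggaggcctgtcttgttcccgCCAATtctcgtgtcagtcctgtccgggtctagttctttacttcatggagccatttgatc
Mcm3: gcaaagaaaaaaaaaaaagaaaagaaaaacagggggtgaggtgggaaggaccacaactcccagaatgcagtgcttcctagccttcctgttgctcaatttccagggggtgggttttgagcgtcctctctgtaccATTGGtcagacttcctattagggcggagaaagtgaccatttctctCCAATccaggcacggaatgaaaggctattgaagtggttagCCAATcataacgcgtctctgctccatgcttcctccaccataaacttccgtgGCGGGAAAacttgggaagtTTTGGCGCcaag
E2f2: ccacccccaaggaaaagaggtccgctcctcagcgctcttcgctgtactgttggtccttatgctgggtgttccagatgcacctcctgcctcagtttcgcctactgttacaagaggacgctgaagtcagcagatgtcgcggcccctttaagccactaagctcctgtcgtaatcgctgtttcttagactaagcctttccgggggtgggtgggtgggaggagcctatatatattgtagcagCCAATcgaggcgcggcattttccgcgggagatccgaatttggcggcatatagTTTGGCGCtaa
Top2a: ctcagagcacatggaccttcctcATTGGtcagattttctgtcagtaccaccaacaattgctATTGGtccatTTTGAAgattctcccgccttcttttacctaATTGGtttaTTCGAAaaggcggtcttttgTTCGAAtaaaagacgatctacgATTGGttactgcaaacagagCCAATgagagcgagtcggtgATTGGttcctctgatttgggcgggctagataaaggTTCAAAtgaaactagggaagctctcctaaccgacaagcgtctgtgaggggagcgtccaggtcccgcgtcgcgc
Ccnb2: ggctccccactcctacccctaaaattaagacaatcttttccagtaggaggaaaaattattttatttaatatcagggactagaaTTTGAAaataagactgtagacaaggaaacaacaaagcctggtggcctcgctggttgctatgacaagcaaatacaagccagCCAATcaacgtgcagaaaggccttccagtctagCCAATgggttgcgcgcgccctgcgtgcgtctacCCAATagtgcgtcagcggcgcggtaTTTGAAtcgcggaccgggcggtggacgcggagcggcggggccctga

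None of the 31 tested members passed an adjusted p of 0.05 (limma, Benjamini-Hochberg over 12499 genes) at either dose against vehicle, or between the doses. Few genes of any kind did: 0.0880% of all tested genes passed at 5 mg/kg, 0.00800% at 1 mg/kg and 0.00% between the doses. At an unadjusted p under 0.05, 1 of 31 members passed at 5 mg/kg against vehicle (Pcna, higher), against 7.78% of all genes. At 1 mg/kg against vehicle 2 of 31 passed (Top2a and Ccne1, both lower), against 6.03% of all genes. Between 5 and 1 mg/kg 2 of 31 passed (Pcna higher and Prim1 lower at 5 mg/kg), against 7.90% of all genes. With 5 mice a group the median standard error of a log2 difference was 0.289. In simulated data of this size 32% of genes changed by 1 on the log2 scale and 76% of those changed by 2 were recovered in the comparison of 5 mg/kg with vehicle. The simulation changed 100 genes by each amount and set no floor. It therefore does not give the recovery for members near the floor, or for data with fewer changed genes.

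Among the replication genes, Pcna showed the largest difference from vehicle at 5 mg/kg. Its log2 values were 8.19, 8.59, 8.21, 8.10 and 7.94 with vehicle, 8.52, 8.70, 8.52, 8.52 and 8.06 at 1 mg/kg, and 8.85, 8.73, 9.44, 9.32 and 9.12 at 5 mg/kg. All 5 arrays at 5 mg/kg lay above all arrays of the other groups, while the 1 mg/kg and vehicle arrays overlapped. Complete separation from vehicle in the higher direction was seen for 1.11% of all tested genes, and complete separation of 5 from 1 mg/kg in that direction for 0.920%. At 5 mg/kg Pcna was 1.85-fold higher than with vehicle, a log2 difference of 0.89 ± 0.20 (SE, 95% interval 0.47 to 1.30, limma adjusted p = 0.111). It was higher by 0.26 ± 0.20 at 1 mg/kg (adjusted p = 0.893), and 5 mg/kg exceeded 1 mg/kg by 0.63 ± 0.20 (adjusted p = 0.488).

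The call on Pcna depended on the settings. Its adjusted p at 5 mg/kg was 0.0448 with a floor of 32, 0.0454 with the mean of each gene's probe sets and 0.0384 with array weights, and it lay above 0.05 under all others of the 30 alternatives. The mean log2 of 9 tested B cell markers was 7.10 to 7.92 at 5 mg/kg, against 6.53 to 7.63 with vehicle. At 1 mg/kg it was 5.78 to 7.22. Its group average there, 6.73, lay below the 6.93 of vehicle, whereas that of Pcna lay above. At 5 mg/kg 7 of the 9 markers were higher than with vehicle and 2 were lower, against 46.6% of all genes above 0. At an unadjusted limma p under 0.05 3 were higher, against 3.51% of all genes, and 0 at an adjusted p under 0.05. The B cell marker mean was also used as a covariate, an alternative added after the data were seen. With it the Pcna difference from vehicle was 0.66 (limma adjusted p = 0.237) and that between 5 and 1 mg/kg was 0.31 (adjusted p = 0.998). The 18S control signal was also lower in all 5 mg/kg arrays, at 8.83 to 9.88, against 10.24 to 12.31 with vehicle, and with it as a covariate the Pcna difference was 1.04 (adjusted p = 0.469). In whole blood, a change in the number of cells of a type and a change in RNA per cell cannot be told apart. Pcna was read by 1 probe set, and the mouse gene table also lists Pcna pseudogenes, whose transcripts that probe set may match.

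Prim1 was the member with the clearest gap between doses in the other direction. It stood at 6.49, 6.24, 6.46, 6.43 and 6.36 with vehicle, 7.19, 6.37, 6.38, 6.24 and 6.88 at 1 mg/kg, and 5.90, 6.33, 5.90, 6.04 and 6.19 at 5 mg/kg. The 5 mg/kg arrays overlapped the others through replicate 2 alone, and the 1 mg/kg mean was lifted by replicates 1 and 5. The log2 difference between 5 and 1 mg/kg was -0.54 ± 0.20 (limma adjusted p = 0.528), and it was -0.39 without replicate 1 of the 1 mg/kg group, whose median intensity of 3.61 before scaling was the lowest of the arrays. With no scaling between arrays it was -0.35, and with the mean of the Prim1 probe sets, the other of which was above the floor on 2 arrays, it was -0.24. Against vehicle Prim1 differed by -0.32 ± 0.20 at 5 mg/kg (adjusted p = 0.773) and by 0.22 ± 0.20 at 1 mg/kg.

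No helicase gene passed the threshold, and for Mcm3 and Mcm4 the sign of a difference from vehicle rested on the probe set. Mcm4 had 5.74, 6.46, 6.07, 5.83 and 6.11 with vehicle, 5.73, 6.40, 5.54, 5.79 and 5.49 at 1 mg/kg, and 5.76, 5.98, 6.57, 6.17 and 6.24 at 5 mg/kg, with all 3 groups overlapping. For Mcm4 the log2 difference from vehicle was 0.10 ± 0.22 at 5 mg/kg, where a second probe set gave -0.05. At 1 mg/kg it was -0.25 ± 0.22, with -0.24 from the second probe set. The log2 differences of the other tested subunits at 5 mg/kg from vehicle were -0.20 for Mcm2, -0.11 for Mcm3, -0.19 for Mcm6 and 0.01 for Mcm7. At 1 mg/kg they were 0.07, -0.43, -0.10 and -0.23 in the same order. Other tested probe sets gave 0.12 and 0.55 for Mcm7, -0.19 and -0.39 for Mcm3 and -0.01 for Mcm6 at 5 mg/kg. At 1 mg/kg those of Mcm3 gave 0.22 and 0.00, where the one used gave -0.43. Between 5 and 1 mg/kg the 3 tested Mcm7 probe sets gave 0.25, 0.38 and 0.64, with limma adjusted p of 0.549 or more. Cdt1, the licensing factor that loads the helicase, differed from vehicle by 0.34 ± 0.26 at 5 mg/kg and by -0.18 ± 0.26 at 1 mg/kg. Gins2, a subunit of the GINS complex, had a log2 difference of -0.77 ± 0.51 at 5 mg/kg, the lowest among the tested members as fitted here. That value came from vehicle replicates 1 and 2, at 7.08 and 5.24, since the other 3 vehicle arrays were at the floor of 4 as were 3 of the 5 mg/kg arrays. Without vehicle replicate 1 it was -0.22, so its size did not hold. With the 18S signal as a covariate, which did not overlap between 5 mg/kg and vehicle, it was 1.02. Its sign changed under that 1 of 29 alternatives.

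Fen1, the flap endonuclease that trims Okazaki fragments, read 8.76, 8.64, 9.53, 8.84 and 8.44 with vehicle, 10.15, 8.70, 7.71, 7.98 and 9.10 at 1 mg/kg, and 8.53, 7.97, 9.36, 7.91 and 8.61 at 5 mg/kg. The spread within the 1 mg/kg group was wider than any gap between group means, and the differences from vehicle were -0.37 ± 0.41 at 5 mg/kg and -0.11 ± 0.41 at 1 mg/kg. Rrm1, the large subunit of ribonucleotide reductase, read 6.72, 6.68, 6.47, 6.39 and 6.60 with vehicle, 7.54, 6.40, 6.56, 6.15 and 6.91 at 1 mg/kg, and 6.46, 6.63, 6.86, 6.08 and 6.50 at 5 mg/kg. The same 1 mg/kg replicates 1 and 5 that were high for Prim1 were high for Rrm1 and Fen1. The Rrm1 log2 difference at 5 mg/kg from vehicle was -0.07 ± 0.24, while a second Rrm1 probe set gave 0.48, so the direction depended on the probe set. Between 5 and 1 mg/kg the one used gave -0.20 and the second gave 0.67 (limma unadjusted p = 0.0093, adjusted p = 0.454). Rpa2, a subunit of the single-strand binding protein RPA, had 0.56 ± 0.30 at 5 mg/kg from a probe set at the floor in 4 of 5 vehicle arrays, and its other probe set gave -0.10. The remaining replication genes, Rrm2 (the small reductase subunit), Tyms (thymidylate synthase), Lig1 (DNA ligase 1) and Pola1 (DNA polymerase alpha), had differences from vehicle of -0.25 to 0.02 at 5 mg/kg and -0.28 to -0.04 at 1 mg/kg. A second tested Rrm2 probe set gave 0.23 at 5 mg/kg and 0.88 at 1 mg/kg, outside those ranges and of the opposite sign to the one used.

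**Figure D2:**
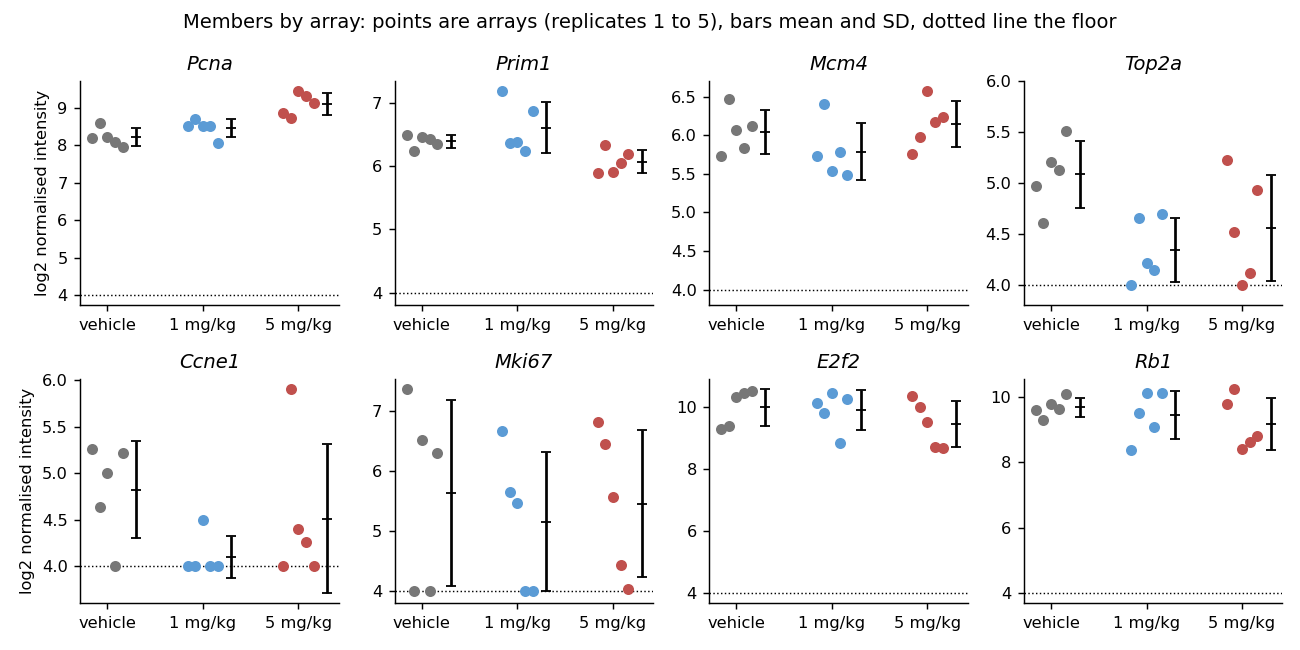
Log2 normalised intensity (y axis) of 8 members on each of 15 arrays, with 5 arrays per group (x axis, vehicle, 1 mg/kg and 5 mg/kg); bars give the mean and SD of each group and the dotted line the floor of 4. Pcna at 5 mg/kg lies between 8.73 and 9.44, above all other arrays, whereas in the other panels the 5 mg/kg and vehicle points overlap.

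The regulators of S phase entry gave no difference past the threshold. E2f2, an E2F factor that takes part in the maturation of red cell precursors in mouse, had 9.28, 9.39, 10.30, 10.42 and 10.49 with vehicle, 10.13, 9.79, 10.44, 8.84 and 10.26 at 1 mg/kg, and 10.35, 9.99, 9.49, 8.69 and 8.67 at 5 mg/kg. Replicates 4 and 5 at 5 mg/kg lay below every vehicle array, and the other 3 lay within the vehicle range. The difference from vehicle was -0.54 ± 0.39 at 5 mg/kg (limma adjusted p = 0.822) and -0.08 ± 0.39 at 1 mg/kg, and the second E2f2 probe set gave -0.56 and 0.01. Rb1, the pocket protein that restrains E2F, had 9.63, 9.30, 9.78, 9.65 and 10.11 with vehicle, 8.39, 9.53, 10.12, 9.10 and 10.13 at 1 mg/kg, and 9.81, 10.26, 8.42, 8.63 and 8.81 at 5 mg/kg. Here replicates 3, 4 and 5 at 5 mg/kg were below every vehicle array and replicate 2 was above them all, giving -0.51 ± 0.38 (adjusted p = 0.829) at 5 mg/kg and -0.24 ± 0.38 at 1 mg/kg.

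E2f1, the activating E2F, read 7.95, 7.97, 6.81, 8.07 and 7.90 with vehicle, 8.34, 8.16, 7.90, 7.50 and 7.79 at 1 mg/kg, and 7.48, 7.91, 7.25, 8.08 and 8.14 at 5 mg/kg. The groups overlapped and differed by 0.03 ± 0.27 at 5 mg/kg and 0.20 ± 0.27 at 1 mg/kg from vehicle, while its other 2 probe sets gave -0.30 and -0.43 at 5 mg/kg. Ccne1, cyclin E1, read 5.26, 4.64, 5.00, 4.00 and 5.22 with vehicle, 4.00, 4.00, 4.50, 4.00 and 4.00 at 1 mg/kg, and 4.00, 5.91, 4.40, 4.26 and 4.00 at 5 mg/kg. Only 1 of the 5 arrays at 1 mg/kg exceeded the floor, against 4 of 5 with vehicle, for a log2 difference of -0.73 ± 0.34 (limma adjusted p = 0.828) that the floor limits. With the mean of the Ccne1 probe sets it was -0.38, and with the 18S covariate -0.46. Cdk2, the kinase that cyclin E activates, ran from 4.68 to 6.61 with vehicle, from 4.18 to 6.59 at 1 mg/kg and from 5.15 to 6.47 at 5 mg/kg, with a difference of 0.53 ± 0.44 at 5 mg/kg and -0.17 ± 0.44 at 1 mg/kg.

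Among the mitosis genes, Top2a stood lower in the treated groups without passing the threshold. It had 4.97, 4.61, 5.20, 5.13 and 5.51 with vehicle, 4.00, 4.66, 4.21, 4.15 and 4.70 at 1 mg/kg, and 5.22, 4.52, 4.00, 4.12 and 4.93 at 5 mg/kg. At 1 mg/kg all arrays but replicates 2 and 5 lay below the whole vehicle range, and at 5 mg/kg replicates 2, 3 and 4 did. The log2 difference from vehicle was -0.74 ± 0.26 at 1 mg/kg (limma adjusted p = 0.739) and -0.53 ± 0.26 at 5 mg/kg (adjusted p = 0.677), so the larger gap was at the lower dose, and the difference of 0.21 ± 0.26 between 5 and 1 mg/kg did not pass (adjusted p = 0.868). With the mean of the Top2a probe sets, the others of which were above the floor on 2 arrays or none, the differences were -0.21 at 1 mg/kg and -0.18 at 5 mg/kg, and with no scaling between arrays they were -0.43 and -0.22.

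Ccna2, cyclin A2 of S and G2 phase, read 7.19, 7.31, 7.44, 7.34 and 7.46 with vehicle, 7.55, 7.50, 7.0, 6.77 and 7.62 at 1 mg/kg, and 7.49, 7.52, 7.20, 6.78 and 7.11 at 5 mg/kg. Its differences from vehicle were -0.13 ± 0.21 at 5 mg/kg and -0.06 ± 0.21 at 1 mg/kg, whereas a second Ccna2 probe set gave 0.45 and 0.85. Cdc20, the activator of the anaphase-promoting complex, read 6.03, 6.26, 6.10, 6.42 and 6.11 with vehicle, 6.88, 6.59, 6.52, 6.12 and 6.21 at 1 mg/kg, and 6.18, 6.32, 6.50, 6.33 and 6.64 at 5 mg/kg. It was higher by 0.21 ± 0.18 at 5 mg/kg and 0.28 ± 0.18 at 1 mg/kg than with vehicle, and its second bright probe set gave -0.12 and -0.29, so for both genes the sign rested on the choice of probe set. Plk1, polo-like kinase 1, read 7.02, 5.73, 7.40, 5.62 and 6.55 with vehicle, 6.02, 6.32, 6.36, 5.61 and 6.28 at 1 mg/kg, and 6.46, 7.20, 5.66, 5.15 and 6.43 at 5 mg/kg. The vehicle arrays alone covered most of this range, and the differences were -0.28 ± 0.39 at 5 mg/kg and -0.35 ± 0.39 at 1 mg/kg.

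Mki67, which encodes the proliferation marker Ki-67, varied more between mice than any other tested member. It read 7.38, 4.00, 6.52, 4.00 and 6.31 with vehicle, 6.67, 5.66, 5.47, 4.00 and 4.00 at 1 mg/kg, and 6.82, 6.45, 5.57, 4.43 and 4.02 at 5 mg/kg. Each group thus held bright arrays and arrays at or close to the floor, and the difference at 5 mg/kg from vehicle was -0.18 with a standard error of 0.74, for a 95% interval of -1.75 to 1.38. For Ccnb2 the difference at 5 mg/kg was -0.41 ± 0.44, with 3 of 5 arrays at the floor in both groups. The mitotic kinase gene Aurka, the checkpoint gene Bub1b, the spindle motor gene Kif11 and the centromeric histone gene Cenpa had differences of -0.21, 0.12, 0.29 and 0.13 at 5 mg/kg, and of -0.10, -0.02, -0.17 and -0.25 at 1 mg/kg. A second tested Kif11 probe set gave -0.004 at 5 mg/kg and 0.33 at 1 mg/kg. That of Cenpa gave -0.23 at 5 mg/kg and -0.04 at 1 mg/kg, so for both genes a sign rested on the probe set.

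**Figure D3:**
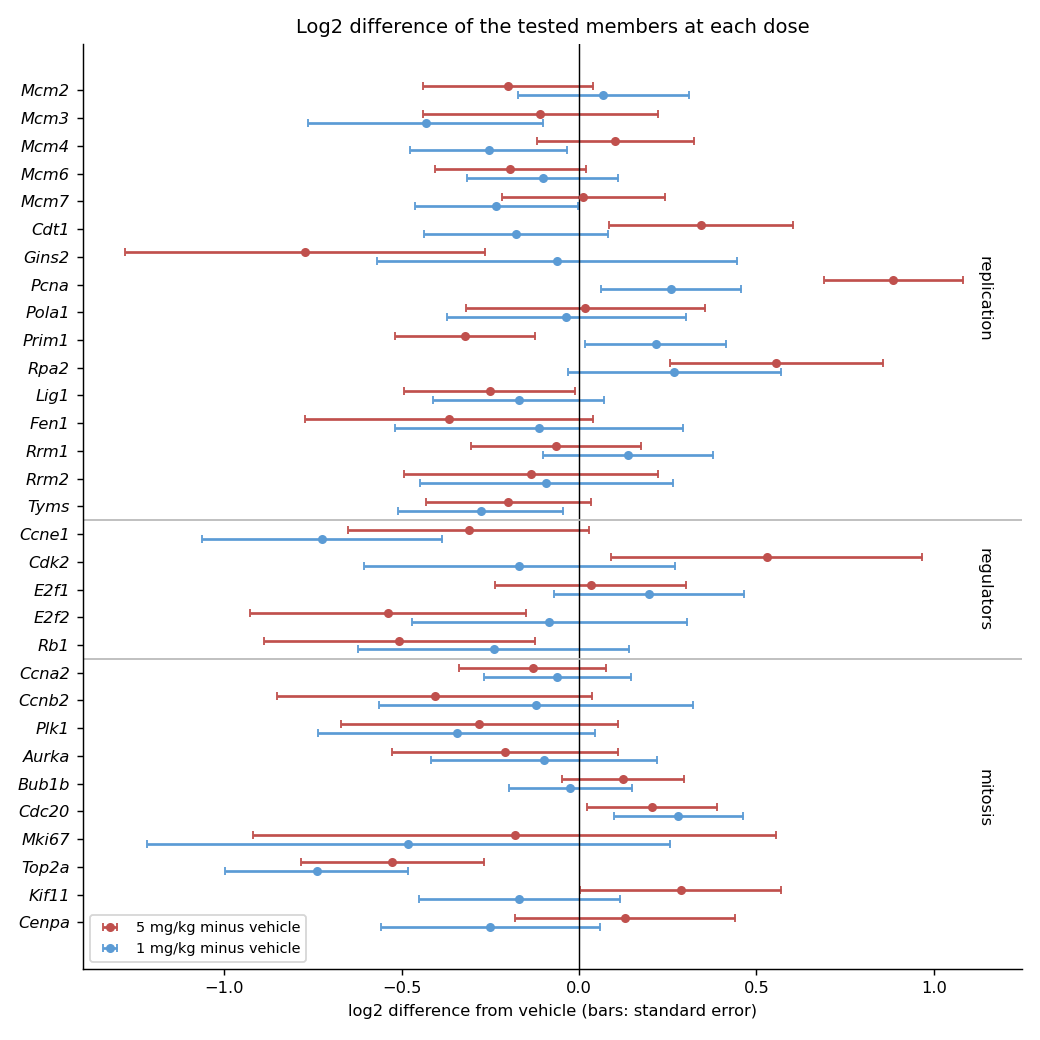
Log2 difference from vehicle (x axis) of the 31 tested members (y axis, by class), with 5 mg/kg in red and 1 mg/kg in blue and bars of 1 standard error from the limma fit over 15 arrays. Pcna at 5 mg/kg, at 0.89, is the point farthest to the right, and no member passed the adjusted threshold at either dose.

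At 5 mg/kg 6 of 16 replication genes and 4 of 10 mitosis genes had a log2 difference above 0, against 46.6% of all tested genes. The median difference was -0.12 for replication genes, -0.16 for mitosis genes and -0.31 for the 5 regulators, against -0.03 for all genes. At 1 mg/kg 5 of 16 replication genes, 1 of 10 mitosis genes and 1 of 5 regulators lay above 0, against 47.0% of all genes. The medians there were -0.10, -0.15 and -0.17 in that order, against -0.02 for all genes. Both doses were compared with the same 5 vehicle arrays, and the medians are descriptions of the lists with no test. With no scaling between arrays the 5 mg/kg medians were 0.05 for replication genes and -0.03 for mitosis genes, and that of all genes was 0.10. Between 5 and 1 mg/kg 8 of 16 replication and 6 of 10 mitosis genes lay above 0, against 47.7% of all genes. The medians were 0.01 for replication and 0.11 for mitosis genes, against -0.02 for all genes. With each array left out in turn they ran from -0.07 to 0.11 for replication genes and from -0.03 to 0.23 for mitosis genes, and the mitosis median was 0.37 with the B cell covariate.

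Cell type markers were set beside the members because the makeup of blood differs from mouse to mouse. Above the floor on all 15 arrays were 8 of 9 tested erythroid markers, 9 of 10 platelet markers, 7 of 9 T cell markers and 6 of 9 B cell markers. The shares were 6 of 10 for monocytes, 5 of 8 for NK cells, 4 of 10 for mature neutrophils, 3 of 6 for immature neutrophil granules and 2 of 5 for dendritic cells. Of the 10 eosinophil and basophil markers 7 were too dim to test and 1 was above the floor throughout, and of the 6 progenitor markers 3 were too dim and 1 was above it throughout. Pearson correlations of the 31 members with the mean of 11 marker lists made 341 relations, of which 6 had an adjusted permutation p under 0.05 (100000 resamples, two-sided, Benjamini-Hochberg). The permutations shuffled all 15 arrays without regard to group, so their p-values also count differences between groups shared by gene and markers. Groups of 5 arrays are too small for a correlation of their own, so r was also computed after each group's mean was taken off. No p was computed for that r.

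Mcm4 followed the T cell markers (r = 0.84, permutation p = 0.00011, adjusted p = 0.0188; Spearman's rho = 0.88, permutation p = 0.00008, adjusted p = 0.0222). The r was 0.86 without the 2 arrays farthest from the median and 0.80 with group means removed. With the B cell markers Mcm4 had r = 0.72 (permutation p = 0.00168, adjusted p = 0.0686), which did not pass the threshold. Top2a followed the markers of immature neutrophil granules (r = 0.84, permutation p = 0.00011, adjusted p = 0.0188; rho = 0.84, permutation p = 0.00013, adjusted p = 0.0222), with 0.79 and 0.83 on the same checks. That marker mean was 5.60 to 6.13 at 1 mg/kg, against 5.86 to 6.25 with vehicle, and its part in the lower Top2a values was not tested.

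Pcna and Cdt1 both followed the B cell markers. For Pcna r was 0.76 (permutation p = 0.00066, adjusted p = 0.0381) and rho was 0.83 (permutation p = 0.00021, adjusted p = 0.0239), with r at 0.72 without the 2 farthest arrays and 0.82 with group means removed. For Cdt1 r was 0.77 (permutation p = 0.00043, adjusted p = 0.0381) and rho was 0.77 (permutation p = 0.00121, adjusted p = 0.0825), with 0.61 and 0.68 on the same checks. With the T cell markers Cdt1 had r = 0.72 (permutation p = 0.00282, adjusted p = 0.0801). Pcna had r = 0.64 with them (permutation p = 0.0105, adjusted p = 0.207), and neither passed the threshold. The T cell marker mean ran from 6.58 to 7.69 at 5 mg/kg, against 6.53 to 7.29 with vehicle, and the 2 groups overlapped. The monocyte marker mean was lower, at 6.63 to 6.85 at 5 mg/kg, against 7.30 to 7.99 with vehicle, and so was the dendritic cell marker mean, at 5.14 to 5.49 at 5 mg/kg, against 5.73 to 6.20 with vehicle. For both lists the groups did not overlap. The marker means of the other lists overlapped between 5 mg/kg and vehicle.

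E2f2 followed the erythroid markers (r = 0.76, permutation p = 0.00064, adjusted p = 0.0381; rho = 0.71, permutation p = 0.00385, adjusted p = 0.157), with r at 0.60 without the 2 farthest arrays and 0.77 with group means removed. Rb1 did so to a similar degree without passing the threshold (r = 0.72, permutation p = 0.00207, adjusted p = 0.0706; rho = 0.78, permutation p = 0.00116, adjusted p = 0.0825). The erythroid mean was lowest in replicate 4 at 5 mg/kg and overlapped between groups, at 7.43 to 8.92 at 5 mg/kg, against 8.07 to 8.92 with vehicle. With it as a covariate the differences at 5 mg/kg were -0.34 for E2f2 and -0.33 for Rb1. With the 18S signal as a covariate that of E2f2 was -1.25, and over all alternatives E2f2 ran from -1.25 to -0.34 and Rb1 from -0.78 to -0.16, with no adjusted p under 0.05. Rrm1 followed the progenitor markers (r = 0.82, permutation p = 0.00067, adjusted p = 0.0381; rho = 0.65, permutation p = 0.01058, adjusted p = 0.225). Without replicates 1 and 5 of the 1 mg/kg group r was 0.48, so this relation rested on those arrays. As for every member, only the probe set used was correlated.

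**Figure D4:**
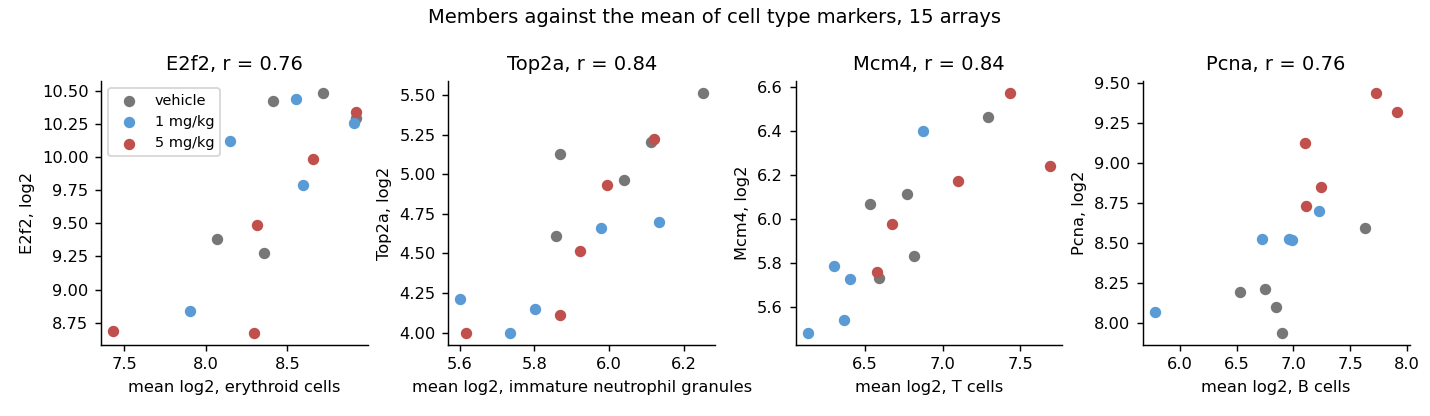
Log2 intensity of E2f2, Top2a, Mcm4 and Pcna (y axes) against the mean log2 intensity of erythroid, immature neutrophil granule, T cell and B cell markers (x axes), 1 point per array and 15 arrays per panel, coloured by group. In each panel the points run upward, with r from 0.76 to 0.84, and in the Pcna panel 5 mg/kg points occupy the top.

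Other genes of the same pathways gave no call either. Of 44 further replication genes 33 were tested, of 50 further mitosis genes 35, and of 28 further cell cycle regulators 21, and 0 passed the adjusted threshold at either dose. At an unadjusted p under 0.05 and 5 mg/kg, 1 of the 33 replication genes, 1 of the 35 mitosis genes and 2 of the 21 regulators were higher, against 3.51% of all genes. On the lower side were 0 replication genes, 4 mitosis genes and 1 regulator, against 4.26% of all genes. At 1 mg/kg 2 replication genes and 1 mitosis gene were higher, against 1.97% of all genes, and 1 mitosis gene was lower, against 4.06%. The median differences at 5 mg/kg were 0.03, -0.09 and 0.08 for the 3 lists in that order, against -0.03 for all genes. Above 0 at that dose were 19 of 33, 9 of 35 and 11 of 21 genes in the same order, against 46.6% of all genes. At 1 mg/kg 16, 17 and 9 of them lay above 0, against 47.0% of all genes.

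Slbp, which binds the stem-loop of histone mRNAs in S phase, stood higher at 5 mg/kg without passing the threshold. It ran from 5.40 to 6.40 with vehicle, from 5.22 to 6.36 at 1 mg/kg and from 6.41 to 7.04 at 5 mg/kg. The 5 mg/kg arrays thus lay above all the others, by a narrow gap. Such separation in the higher direction was seen for 1.11% of all tested genes against vehicle and for 0.920% against 1 mg/kg. The Slbp difference from vehicle was 0.99 ± 0.26 at 5 mg/kg (limma adjusted p = 0.180) and 0.07 ± 0.26 at 1 mg/kg. Prc1, a bundler of spindle midzone microtubules, ran from 5.42 to 6.63 at 1 mg/kg, against 4.57 to 5.36 with vehicle. The groups did not overlap, as was the case in the higher direction for 0.184% of all genes at that dose. It differed from vehicle by 1.04 ± 0.30 at 1 mg/kg (limma adjusted p = 0.529) and by 0.01 ± 0.30 at 5 mg/kg. Smc4, a condensin subunit, differed by -0.52 ± 0.16 at 1 mg/kg (limma adjusted p = 0.671) and by -0.13 ± 0.16 at 5 mg/kg.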

How the data were processed

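Blood RNA of 15 mice, 200 ng each, was made into biotinylated cRNA with an Affymetrix 3' IVT kit, per the labels' protocols. The values the authors deposited are linear intensities per probe set with some negatives, as read from the values. No source used here gives the software, summarisation or background correction. The authors' intensities appeared unscaled, since the median of an array was between 3.61 and 25.4 although the Cre control stayed between 12759 and 17148.

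Here 64 of 45101 probe sets, the controls, were set aside, the rest were quantile normalised, values under 16 were set to 16 (52.7% of values), and log2 was taken. Of the probe sets, 34945 carried 1 gene symbol, and a gene was its probe set of highest mean. Probe set annotation can be old, and probe sets ending in _x_at or _s_at can match related transcripts. R 4.3.3 and its package limma 3.58.1 served for all comparisons (moderated fit over all 15 arrays, two-sided, 12 residual and 3.90 prior degrees of freedom, Benjamini-Hochberg over 12499 genes). Each array was 1 mouse, so p-values set a difference between groups against the spread between mice within these groups. That spread was pooled over the 3 groups and moderated by that of all tested genes, and the number of arrays limits the precision. The fit was tested on simulated data without a floor, where 4 of 112 calls were false.

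The members and all lists were chosen with earlier results of these data known. Values on every array were given for members with an unadjusted p under 0.05, for the 3 of highest mean per class, and for Pcna and Rb1. Mcm4 and Mki67 were added after their values were seen. Of the other pathway genes, those with an unadjusted p under 0.01 against vehicle were named. Promoter windows came from RefSeq. The 30 alternatives changed the scaling, floor, filter on dim genes, probe set rule or model, or left out 1 array.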

Additional observations from a re-analysis of the deposited data

Results flagged for a closer look

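Among 93 groups of 5 arrays, 1 for each tested member in each dose group, 8 held an array whose gap to its nearest neighbour was large against the range of its group by Dixon's test (ratio above 0.71). Chance flags about 1 in 20 groups of normally spread values, a rate that does not hold where arrays tie at the floor. In 3 of the 8 the other arrays of the group were all at the floor of 4, so any array above it stood apart. In the flagged groups of Tyms and Ccnb2 3 other arrays were at the floor, and in that of Ccne1 at 5 mg/kg 2 were.

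Pcna read 8.06 in replicate 5 at 1 mg/kg, with the nearest array of that group at 8.52. E2f1 read 6.81 in vehicle replicate 3, with the nearest at 7.90. Ccne1 read 5.91 in replicate 2 at 5 mg/kg, with the nearest at 4.40, and 4.50 in replicate 3 at 1 mg/kg, where the other arrays were at the floor. Tyms read 4.74 in replicate 5 at 1 mg/kg, with the nearest at 4.03, and Ccnb2 read 5.16 in replicate 1 at 5 mg/kg, with the nearest at 4.18. Rpa2 read 4.51 in vehicle replicate 2 and Bub1b read 4.34 in replicate 5 at 1 mg/kg, each against a group otherwise at the floor.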

How the results depend on the processing

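No member passed the threshold at 1 mg/kg against vehicle or between the doses under any of the 30 alternatives. At 5 mg/kg against vehicle the number of members past it was 1 (Pcna) with a floor of 32, with the mean of each gene's probe sets and with array weights, and 0 under the others, leaving out each array included. The number of all genes past it there was 11, and it was 45, 33 and 65 under those 3 settings, 32 with each probe set on its own, 22 when a gene needed only 1 array above the floor, 17 with only the 2 groups fitted, 5 with arrays scaled to a common median, 1 with no scaling and 0 with the 18S signal as a covariate. Leaving out replicate 1 or replicate 5 of the 1 mg/kg group gave 19 and 22. The cause was not tested.

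The Pcna difference from vehicle at 5 mg/kg ran from 0.66 to 1.04 over the 30 alternatives, with limma adjusted p from 0.0384 to 0.9996. When 1 array was left out it ran from 0.80 to 0.98, with adjusted p from 0.0879 to 0.283. The median difference of replication genes at 5 mg/kg was 0.0471 with no scaling between arrays and 0.0274 with the 18S covariate. Leaving out 1 array gave -0.16 to -0.04 for it and -0.21 to 0.02 for mitosis genes. Of 31 members, 18 at 5 mg/kg and 19 at 1 mg/kg changed sign against vehicle under 1 or more alternatives. No sign was seen that the replicate numbers pair the mice, though correlations cannot show what the numbers mark. Same-numbered arrays correlated at -0.28 to 0.35 after group means were removed (median -0.03). Arrays of different numbers and groups correlated at -0.37 to 0.39 (median -4.6e-05). With the replicate block, 0 members passed and Pcna had an adjusted p of 0.237. Signal near the floor limits 12 of the 31 tested members, which were at it on at least 1 array.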
